A study of Canis lupus familiaris with 6 samples.

Results

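LMO2, BCHE, PCSK1 and MUC13 are 4 genes named in the study's list of probes with a higher signal after co-culture in RasV12 cells that also carry a β-catenin mutant. The arrays behind that list are not analysed here. On the arrays described here, which the series title and the source names assign to RasV12 cells without that mutant, the 4 genes are measured by 6 of 43603 probes. The arrays hold 34378 probe names. A search by gene name found 3 probes of BCHE and PCSK1, and the other 3 probes, of LMO2 and MUC13, were found through the probe descriptions in the files. The sequences of all 6 probes are in the study's list. The genes were picked for their values on those other arrays and with earlier results of the present arrays known, so their being listed is not a finding here.

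The arrays bear on whether changes that co-culture brings about in RasV12 cells with activated Wnt signalling are particular to that background. MDCK cells are an epithelial line from canine kidney, and MDCK-pTR GFP-RasV12 cells produce a GFP-tagged RasV12 oncoprotein when tetracycline is added. RasV12 cells were grown alone (3 arrays, called alone below) or with MDCK cells (3 arrays, called mixed) on collagen-coated dishes, were given tetracycline for 24 h and were then sorted for GFP. Total RNA was labelled with Cy3 and hybridised to 1-colour Agilent canine arrays. All 6 samples therefore carry the tetracycline-inducible RasV12 construct and received tetracycline, and none is of MDCK cells on their own. The design gives 10 MDCK cells per RasV12 cell, while the label of mixed replicate 2 gives 100. The extraction text of every sample names cells with mCherry-β-catenin, whereas the source names and the study's methods name plain RasV12 cells, and this conflict was not settled here. The labels do not say whether replicates are separate cultures, so p-values measure the spread between these samples, which may be technical.

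Each slide held arrays of 1 group, which means that a difference between slides and one between cultures cannot be told apart. The 75th percentile of the intensities lay between 592 and 700, and 60.8% to 66.4% of probes were well above background on each array. MDCK cells are epithelial cells of the kidney tubule, and all 13 epithelial markers on the array were detected, among them the keratins KRT18 and KRT19 and the adhesion molecule EPCAM. In the mixed group 1 of the 13 was called higher, CLDN2 (log2 difference 2.49, SE 0.21, adjusted p = 0.0103, limma), and 0 lower, beside 5.5% and 5.72% of all tested probes. The median difference of the list was 0.13. With the replicate number as a block 2 were called higher. A different probe of OCLN was called higher (0.41, adjusted p = 0.0245, limma). CTNNB1, which encodes β-catenin and is in the list, was called lower by a different probe (-0.61, adjusted p = 0.0371, limma). Its other probes were below 0 and not called.

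The 4 genes belong to different parts of cell biology. LMO2 encodes a LIM-only protein that binds no DNA itself and bridges transcription factors of the GATA and basic helix-loop-helix families through the adaptor LDB1. It is best known in blood stem cells and endothelium and as an oncogene in T-cell leukaemia. BCHE encodes butyrylcholinesterase, a secreted enzyme that hydrolyses choline esters, PCSK1 encodes a convertase that cuts prohormones in secretory granules of endocrine cells, and MUC13 encodes a mucin anchored in the apical membrane of intestinal epithelium. β-Catenin acts in the canonical Wnt pathway as a coactivator of TCF/LEF factors, and a form that escapes degradation switches on their target genes.

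The sequences of 5 of the 6 probes are shown because the 4 genes are read through them. Each is 60 bases long and is printed 5′ to 3′ as the array files give it, with its place in the canFam3 build. In BCHE probe 1 the capitals mark TAA, a stop codon triplet that ends the probe.
LMO2 probe 2, chr18:33885827-33885886, plus strand: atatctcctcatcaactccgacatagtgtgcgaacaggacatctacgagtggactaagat
BCHE probe 1, chr34:30912897-30912956, minus strand: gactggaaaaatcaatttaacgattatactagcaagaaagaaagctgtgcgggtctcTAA
BCHE probe 2, chr34:30971043-30971102, minus strand: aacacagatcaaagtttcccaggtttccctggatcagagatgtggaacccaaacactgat
PCSK1, chr3:13273974-13274033, plus strand: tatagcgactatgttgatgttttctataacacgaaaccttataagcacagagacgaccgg
MUC13, chr33:27928843-27928902, minus strand: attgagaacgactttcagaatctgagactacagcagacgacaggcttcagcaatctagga

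LMO2 probe 1 lies at chr18:33886264-33886323 on the plus strand, 377 bases downstream of the end of probe 2, and was designed on an expressed sequence tag, while probe 2 was designed on an Ensembl transcript. Both carry the LMO2 description. The BCHE probes were designed on 1 transcript and are 58086 bases apart in the genome. GC content ran from 36.7% for BCHE probe 1 to 45% for BCHE probe 2, LMO2 probe 2 and MUC13. The files do not state in which exon a probe lies.

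LMO2 was higher in mixed than in alone arrays by both probes, and it was the 1 gene of the 4 that was called. All levels below are log2 processed intensity minus the log2 of the array's own 75th percentile, so that 0 is the 75th percentile and levels of different probes cannot be compared. At LMO2 probe 1 the levels were -2.81, -2.95 and -2.68 in alone replicates 1 to 3 and -2.01, -0.34 and -0.37 in mixed replicates 1 to 3. The corresponding processed intensities ran from 88.2 to 101 in the alone arrays and were 156, 514 and 457 in the mixed arrays. All 3 mixed arrays lay above all 3 alone arrays, with mixed replicate 1 closest to them, 0.66 above the highest alone array.

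At LMO2 probe 2 the levels were -4.79, -4.54 and -4.32 in the alone arrays and -3.46, -2.02 and -1.88 in the mixed arrays. The groups again did not overlap, and the smallest gap, between mixed replicate 1 and alone replicate 3, was 0.86. Processed intensities were 22.4 to 32.4 in alone and 57.5, 160 and 160 in mixed arrays, against a lowest intensity of 9.15 to 14.6 among probes well above background on each array. Both LMO2 probes were well above background on 6 of 6 arrays.

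The mixed minus alone difference was 1.90 on the log2 scale (SE 0.44, 95% confidence interval 0.85 to 2.95, 3.74-fold, adjusted p = 0.0425, limma over 26535 probes) at LMO2 probe 1. At LMO2 probe 2 it was 2.09 (SE 0.41, 95% confidence interval 1.11 to 3.07, 4.27-fold, adjusted p = 0.0298, limma). Ordered by the difference, these were the 61st and the 38th highest of 26535 tested probes. Among all tested probes, 11.2% were called in either direction at an adjusted p under 0.05, 5.5% were called higher in mixed and 5.72% lower. Of the 5 tested probes of the 4 genes, 2 were called, both higher and both of LMO2. In RNA from a bulk of sorted cells, more cells with LMO2 and more LMO2 RNA per cell cannot be told apart.

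**Figure D1:**
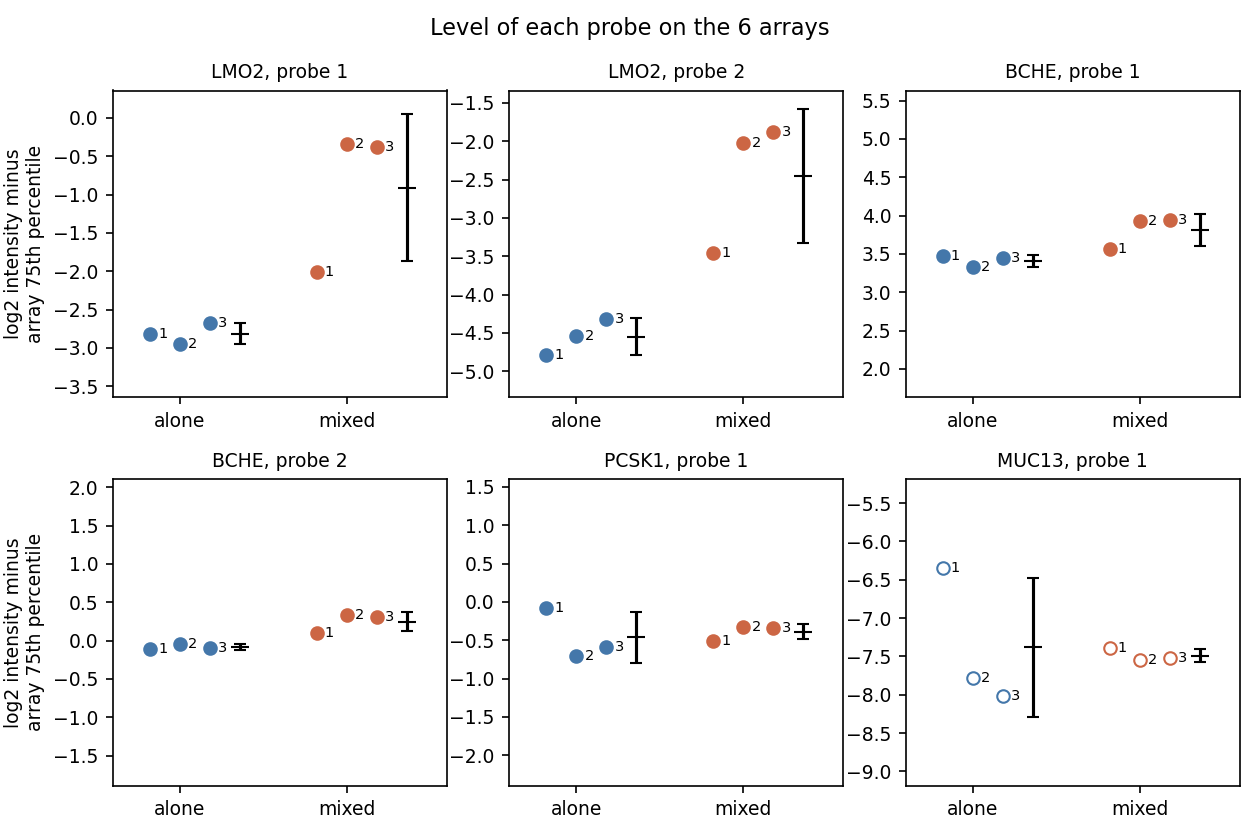
Level of the 6 probes on each array (log2 intensity minus the array's 75th percentile, vertical axis, all panels spanning the same range); numbers are replicates, bars beside the points are mean ± SD (n = 3), and open circles are arrays where the probe was not well above background. At both LMO2 probes mixed replicate 1 sits between the alone arrays and mixed replicates 2 and 3, the mixed arrays of BCHE sit just above the alone arrays, and PCSK1 and MUC13 overlap.

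The 3 mixed arrays did not carry LMO2 to the same extent. Relative to the alone mean, LMO2 probe 1 was higher by 0.80, 2.47 and 2.44 in mixed replicates 1, 2 and 3, and probe 2 by 1.09, 2.52 and 2.66. Mixed replicate 1 thus showed 32.5% and 42.1% of the mean log2 difference of the other two mixed arrays. Over the 200 probes called higher by at least 2-fold the median of this share was 82.5% (quartiles 58.1% and 104%). Probes with a small spread are more readily called, so this share is a description of that set. Mixed replicates 2 and 3, whose labels give different mixing ratios (100 and 10), differed by -0.04 and 0.14 (replicate 3 minus replicate 2). The SD within mixed arrays was 0.96 and 0.87, against 0.13 and 0.24 within alone arrays, and 1.15% and 1.46% of tested probes had a larger pooled SD than LMO2 probes 1 and 2. Mixed replicate 1 moved with both LMO2 values in this way, and what set it apart was not tested.

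The LMO2 call depended on which array was left out, on the scaling, on the filter and on the test. Without mixed replicate 1 the differences were 2.46 (adjusted p = 0.0019, limma) at probe 1 and 2.59 (adjusted p = 0.0053) at probe 2. Without mixed replicate 2 they were 1.62 and 1.88, and without mixed replicate 3 they were 1.64 and 1.81, none of which was called, and neither was called without alone replicate 2 (1.84 and 2.10) or without alone replicate 3 (1.97 and 2.21). Leaving out any of these 4 arrays also brought the number of probes called on the whole array from 2978 to between 7 and 24. Probe 1 was also not called without alone replicate 1 (1.90, adjusted p = 0.0576). With the arrays scaled to the spike-in controls the differences were 1.74 (adjusted p = 0.0639) and 1.93 (adjusted p = 0.0529). With no filter on dim probes (adjusted p = 0.124 and 0.0979, limma) and by the methods' t-test (adjusted p = 0.136 and 0.107) the differences were as above and not called. Normexp background correction, whose offset is added to every intensity and weighs most on dim probes, gave smaller differences of 1.43 and 1.07, both called. In each of the 14 alternatives tried both probes remained higher in mixed, and probe 1 was called in 6 of them and probe 2 in 7.

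The LIM-only proteins act in complexes, and the genes of those complexes on the array gave no call in the main fit. Of 20 genes listed for the LMO2 complex and the LMO family, 14 were found by name and 9 were tested, of which 0 were called higher and 0 lower by limma and 0 by the methods' t-test, with 3 of 9 at an unadjusted p under 0.05 (limma), beside 31.4% of all tested probes. When the replicate number was a block, 1 was called in each direction. After quantile normalization and after normexp background correction 1 was called lower. Without alone replicate 1 there were 1 called higher and 2 called lower. The median difference of the 9 was 0.16, beside -0.00 over all tested probes. LDB1, the adaptor that LMO proteins bind, had a difference of -0.28 (SE 0.08, adjusted p = 0.0614, limma). LMO1, a paralog of LMO2, had 0.55 (SE 0.30, adjusted p = 0.259), and LMO4, a paralog expressed in many epithelia, had 0.20 (SE 0.15, adjusted p = 0.389). GATA2, LMO3, TCF4 and CBFA2T3 were not well above background on any array.

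Because LMO2 is known from blood and endothelium, markers of those cells were counted too. Of 15 such markers on the array, 5 were never well above background, among them PTPRC, SPI1, CDH5 and TEK, which mark leukocytes, myeloid cells and endothelium. Others were well above background on all 6 arrays by the probe used, among them VWF, CD34, KDR and PECAM1 of endothelium and CD68 of macrophages. Differences of the markers detected on all 6 arrays ran from -0.19 (CD34) to 0.18 (CD79A). Other probes of CD34 and PECAM1 were not well above background on any array. Of the 9 tested, 0 were called higher and 0 lower by limma, 0 by the methods' t-test and 0 at an unadjusted p under 0.05 (limma), with a median difference of 0.12. Their summed level, on the same log2 scale, was 2.88 to 3.29 in alone and 2.996 to 3.30 in mixed arrays.

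The genes whose 6 values lay closest to LMO2 probe 1, each taken relative to its own alone mean, were DLA-DMB, DLA-DQB1 and TENM4. The search covered 15495 probes of 9462 other named genes measured on all 6 arrays, and the root mean square distances were 0.20, 0.21 and 0.21 log2 units. DLA-DMB and DLA-DQB1 encode chains of canine MHC class II molecules, which present or load peptide antigens, and TENM4 encodes a teneurin, a large transmembrane protein. Their differences were 1.75, 1.91 and 1.94. Pearson's r with LMO2 probe 1 was 0.99, 0.98 and 0.98 over the 6 arrays, a description of genes picked for this likeness on arrays that share the same split between mixed replicate 1 and the others.

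BCHE was higher on every mixed array than on any alone array by both probes, by a smaller amount, and was not called. At BCHE probe 1 the levels were 3.47, 3.32 and 3.45 in the alone arrays and 3.57, 3.93 and 3.94 in the mixed arrays. At BCHE probe 2 they were -0.11, -0.05 and -0.09 in the alone arrays and 0.11, 0.33 and 0.31 in the mixed arrays. The groups did not overlap at either probe, with gaps of 0.10 and 0.15 between mixed replicate 1 and the highest alone array. Over all tested probes, 17.8% had all 3 mixed arrays above all 3 alone arrays, and of the 5 tested probes of the 4 genes 4 did, the pairs of LMO2 and of BCHE, in which 2 probes read 1 gene.

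The difference at BCHE probe 1 was 0.40 (SE 0.12, 95% confidence interval 0.11 to 0.69, 1.32-fold, adjusted p = 0.0774, limma). At BCHE probe 2 it was 0.33 (SE 0.08, 95% confidence interval 0.13 to 0.53, 1.26-fold, adjusted p = 0.0545, limma). The pair, 58086 bases apart, thus gave differences within 1 SE of each other. Of all tested probes 8.34% had a higher difference than BCHE probe 1 and 11.5% a higher one than BCHE probe 2. The upper ends of these intervals, 1.61-fold and 1.45-fold, lay below the lower ends at LMO2, 1.81-fold and 2.16-fold.

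As with LMO2, mixed replicate 1 lay between the alone arrays and the other two mixed arrays, with 29.6% and 47.2% of their difference at BCHE probes 1 and 2. Without mixed replicate 1 the differences were 0.52 (adjusted p = 0.0326, limma) and 0.40 (adjusted p = 0.0407, limma), and both were then called. BCHE probe 2 was also called after quantile normalization (0.33, adjusted p = 0.0480) and after normexp background correction (0.31, adjusted p = 0.0332). With spike-in scaling neither was called, with differences of 0.24 and 0.17. The 3 named genes with the pattern closest to BCHE probe 1 were ABLIM1, TSHZ1 and PATZ1, at distances of 0.03, 0.04 and 0.05 log2 units, and their differences were 0.39, 0.39 and 0.45.

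Of 28 genes listed for cholinesterases, acetylcholine receptors and choline handling, 23 were on the array and 13 were tested. CHRM4, a muscarinic acetylcholine receptor, was the 1 gene called higher, beside 5.5% of all tested probes. None was called lower, beside 5.72%, and the list median was 0.11. CHRM4 levels were -2.86, -2.86 and -2.78 in alone and -2.09, -2.11 and -1.94 in mixed arrays, a difference of 0.79 (SE 0.08, adjusted p = 0.0125, limma), which was 0.62 and not called with spike-in scaling (adjusted p = 0.0537). With the replicate number as a block 2 genes of the list were called higher. Its 3 mixed arrays lay closer together than those of LMO2 or BCHE. ACHE, which encodes acetylcholinesterase, the enzyme most like butyrylcholinesterase, had a difference of 0.14 (SE 0.09, adjusted p = 0.336, limma).

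**Figure D2:**
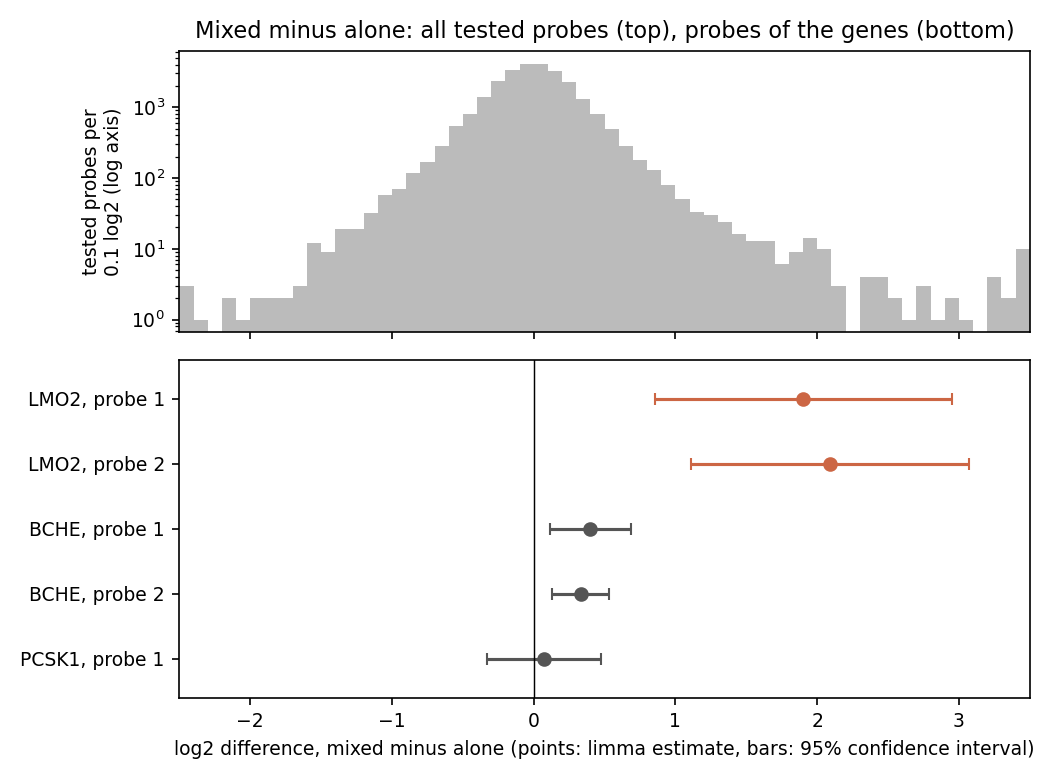
Top, distribution of the mixed minus alone log2 difference over the 26535 tested probes (vertical axis, number of probes on a log scale, values beyond the axis collected in the end bins); bottom, the 5 tested probes of LMO2, BCHE and PCSK1 with limma's estimate and 95% confidence interval, coloured where the adjusted p was under 0.05. The LMO2 probes lie in the sparse right tail at 1.90 and 2.09, the BCHE probes at 0.40 and 0.33, and the interval of PCSK1 spans 0, below which its estimate fell with spike-in scaling.

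PCSK1 showed no difference beyond the spread of its arrays. Its levels were -0.08, -0.71 and -0.59 in the alone arrays and -0.50, -0.33 and -0.33 in the mixed arrays. The highest of the 6 was alone replicate 1, and the groups overlapped. The difference was 0.073 (SE 0.17, 95% confidence interval -0.33 to 0.48, 1.05-fold, adjusted p = 0.800, limma), and it was -0.088 with spike-in scaling. The interval reaches from 0.795-fold to 1.39-fold, so a larger rise or fall of PCSK1 lay outside it.

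The sign of the PCSK1 difference turned with the alone arrays. It was -0.052 without alone replicate 2 and 0.26 without alone replicate 1 (adjusted p = 0.0808, limma), and it was called in none of the 14 alternatives tried. The SD was 0.33 in alone and 0.10 in mixed arrays, the reverse of the order at LMO2 and BCHE. RCAN1, XRRA1 and PDE12 had the patterns closest to PCSK1, with distances of 0.04, 0.04 and 0.05 log2 units and differences of 0.09, 0.05 and 0.11.

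Of 22 genes listed for proprotein convertases and prohormone processing, 18 were on the array and 12 were tested. PCSK5, a convertase of the constitutive secretory pathway, was the 1 gene called higher, beside 5.5% of all tested probes. None was called lower, beside 5.72%, and the list median was 0.05. PCSK5 levels were -1.53, -1.36 and -1.23 in alone and -1.01, -0.84 and -0.93 in mixed arrays, a difference of 0.45 (SE 0.10, adjusted p = 0.0377, limma) that was 0.29 and not called with spike-in scaling (adjusted p = 0.275). The methods' t-test called 0 genes of this list. PCSK1N, which encodes an inhibitor of the PCSK1 protein, had 0.01 (SE 0.12), and FURIN, the ubiquitous convertase, had 0.12 (SE 0.14). PCSK2, the other convertase of endocrine granules, and the granule proteins CHGB, SCG2 and SCG5 were not well above background on any array. Of 11 neuroendocrine markers on the array 4 were never well above background (GCG, NEUROD1, SST and SYP), and 7 were tested. Of these, 0 were called higher and 0 lower by limma and 0 by the methods' t-test. At an unadjusted p under 0.05 (limma) there were 3 of 7, beside 31.4% of all tested probes. For UCHL1 the probe used gave -0.37 (adjusted p = 0.0811, limma), and a different probe was called lower (-0.56, adjusted p = 0.0448, limma). After quantile normalization 1 gene of the list was called lower and after normexp background correction 2 were. The summed level of these markers was 3.94 to 4.02 in alone and 3.81 to 3.91 in mixed arrays. UCHL1 had the highest level of the list, so this sum weighs UCHL1 most and does not describe the other markers.

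MUC13 was not detected. Its processed intensity was 7.58, 3.19 and 2.48 in alone replicates 1 to 3 and 3.75, 3.46 and 3.23 in mixed replicates 1 to 3. It passed the well-above-background test on 0 of 6 arrays, its raw signal of 45.7 to 49.8 standing over a local background of 21 to 25, and the groups overlapped. No fold change or test is given, since both groups have only a bound.

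Of 27 genes listed for mucins and the enzymes that build their sugars, 14 were on the array by name, 3 were never well above background and 11 were tested. GALNT3, which adds the first sugar of mucin-type O-glycans, was the 1 gene called lower, beside 5.72% of all tested probes. None was called higher, beside 5.5%, and the list median was 0.03, or -0.13 with spike-in scaling. GALNT3 levels were 2.79, 2.78 and 2.76 in alone and 2.43, 2.37 and 2.38 in mixed arrays, a difference of -0.39 (SE 0.06, adjusted p = 0.0224, limma; -0.55 and adjusted p = 0.0512 with spike-in scaling). A different GALNT3 probe gave -0.35 (adjusted p = 0.0458, limma). The membrane mucins MUC1 and MUC4, both measured on all 6 arrays, had differences of -0.07 (SE 0.08) and 0.04 (SE 0.08). Of 12 enterocyte and goblet cell markers on the array 6 were never well above background, APOA1, FABP2, SI, KRT20, CLCA1 and SPINK4, and 5 were tested. By limma 0 were called higher and 1 lower, beside 5.5% and 5.72% of all tested probes. The 1 was CDH17, an intestinal cadherin (-0.38, SE 0.08, adjusted p = 0.0324, limma). By the methods' t-test 0 were called, and 1 was called in each direction when the replicate number was a block. The 4 tested markers other than CDH17 had differences above 0, the lectin LGALS4 of 0.65 (adjusted p = 0.199, limma), the fatty acid-binding protein FABP1 of 0.61 (adjusted p = 0.0891), AGR2 of 0.13 and VIL1 of 0.09, and the median of the 5 was 0.13, or -0.03 with spike-in scaling. Their summed level was 2.63 to 2.73 in alone and 2.61 to 2.63 in mixed arrays. CDH17 and AGR2 had the highest levels of the list, so this sum weighs them most and does not describe the other markers.

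The 4 genes came from a list made with activated β-catenin, so known Wnt targets were counted on the present arrays. Of 28 listed, 22 were on the array and 14 were tested, with a median of -0.05. Of the 14, 0 were called higher and 3 lower, beside 5.5% and 5.72% of all tested probes. CD44, a hyaluronan receptor, fell by 0.78 (SE 0.11, adjusted p = 0.0183, limma), BAMBI, a decoy receptor of the TGF-β family, fell by 0.70 (SE 0.17, adjusted p = 0.0463) and CCND1, cyclin D1, fell by 0.59 (SE 0.13, adjusted p = 0.0366). With spike-in scaling 1 of the 3, CD44, was called, with the replicate number as a block 1 Wnt target was called lower, and by the methods' t-test 0 were called. When alone replicate 2 or 3 or mixed replicate 2 or 3 was left out, 0 genes of any list were called by limma. LGR5, LEF1, NKD1 and WIF1 were not well above background on any array. The study's list held 203 probes of this array, of which 166 were tested here, and by the present difference LMO2 probes 2 and 1 ranked 15th and 26th among them, BCHE probes 1 and 2 ranked 116th and 118th, and PCSK1 ranked 134th.

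**Figure D3:**
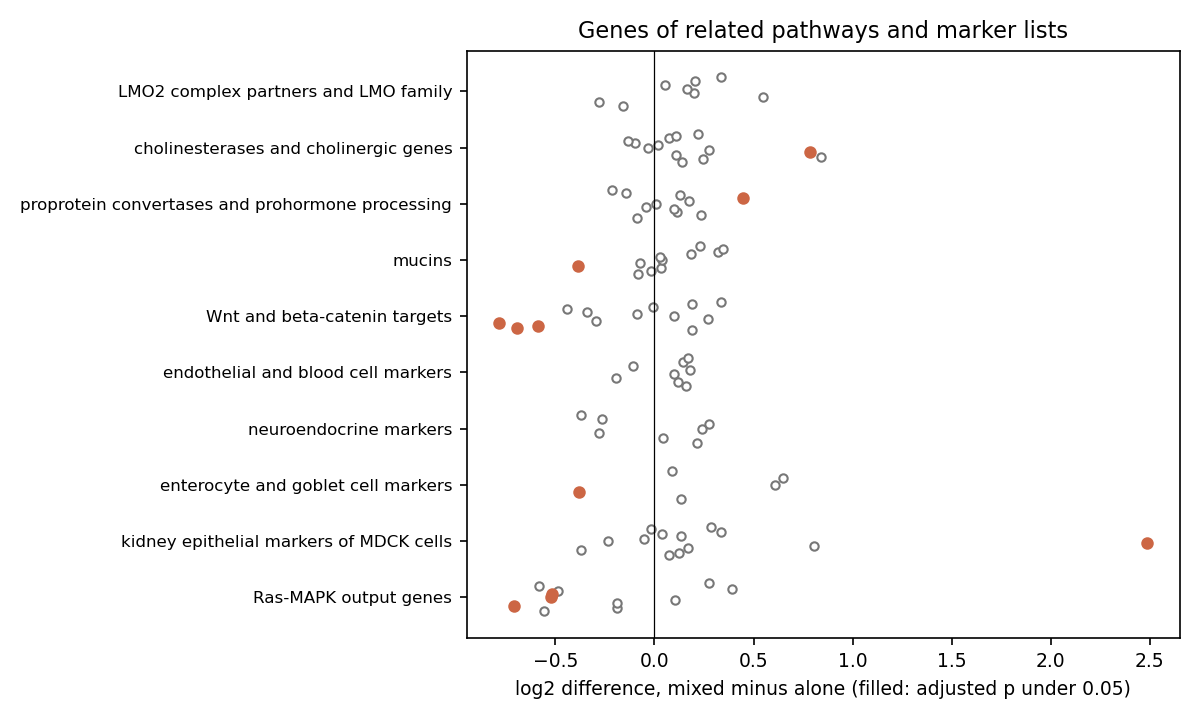
Mixed minus alone log2 difference of single genes (points) in the 10 pathway and marker lists, with 1 probe for each gene, shown for the 100 of 105 tested genes that were detected on all 6 arrays. Filled points had an adjusted p under 0.05 (limma over all probes), and the lists other than the Ras-MAPK genes are centred near 0, with medians between -0.05 and 0.16 that were all between -0.21 and 0.00 with spike-in scaling.

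Some of the genes that report Ras signalling moved with the groups. Of 13 Ras-MAPK output genes on the array 12 were tested, with a median of -0.50. Of the 12, 0 were called higher and 3 lower (FOSL1 by -0.52, EPHA2 by -0.71 and HRAS by -0.51), beside 5.5% and 5.72% of all tested probes. With spike-in scaling 1 was called lower, EPHA2, without mixed replicate 1 there were 5 called lower, and by the methods' t-test 1 was called lower. With the replicate number as a block 3 were called lower and 1 higher. FOSL1 is a transcription factor of the AP-1 family and EPHA2 an ephrin receptor. HRAS encodes H-Ras, a Ras protein rather than an output of Ras, although the labels do not say which Ras the construct carries. HRAS levels were 8.19, 8.25 and 8.29 in alone and 7.95, 7.56 and 7.67 in mixed arrays, so that here too mixed replicate 1 lay nearest the alone arrays. The summed level of the list was 8.67 to 8.74 in alone and 8.14 to 8.47 in mixed arrays. HRAS had by far the highest level of the list, so this sum follows mainly HRAS and does not describe the other genes. The part of these genes in the LMO2 and BCHE differences was not tested.

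**Figure D4:**
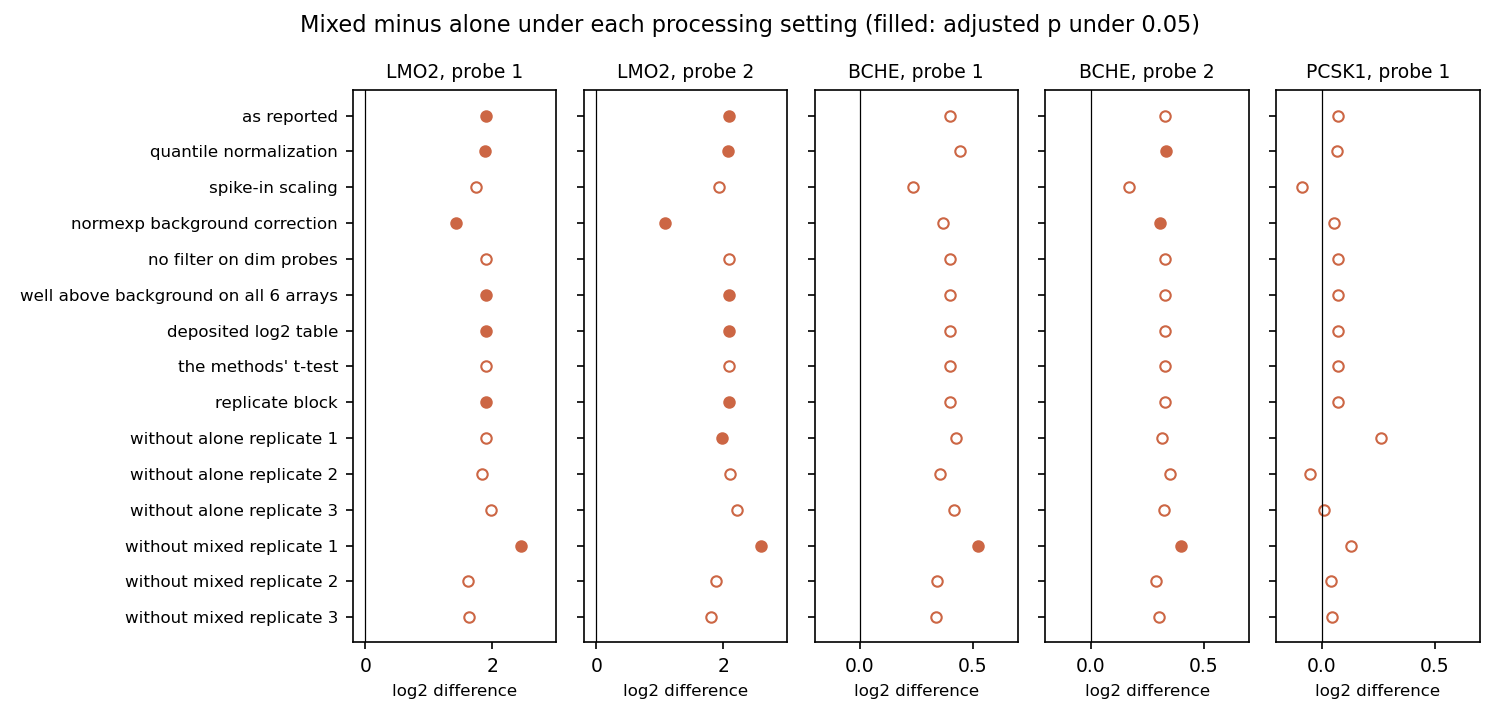
Mixed minus alone log2 difference (horizontal axis, wider for LMO2 than for the others) of the 5 tested probes as reported and under 14 alternatives, named at the left; filled points had an adjusted p under 0.05. LMO2 stayed between 1.07 and 2.59 at both probes, BCHE between 0.17 and 0.52, and PCSK1 crossed 0 with spike-in scaling and without alone replicate 2.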

How the data were processed

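The arrays were 1-colour Agilent canine arrays read with Feature Extraction 10.10.1.1 per the file headers. Processed intensity values, background-subtracted by that program, were deposited per array; the authors also deposited a table of log2 values, which equalled the log2 processed intensity minus the array's 75th percentile to within 0.01 (26529 probes). Here control spots and outlier-flagged spots were left out, spots of a probe averaged, and log2 intensity minus the log2 of each array's 75th percentile was used. Probes well above background on all 3 arrays of a group were tested (26535 of 43603) with limma 3.58.1 in R 4.3.3 (lmFit, eBayes, Benjamini-Hochberg over all tested probes). The unpaired t-test of the study's methods, other scalings, background correction and filters, the deposited table, a replicate block and leaving out each array were tried as alternatives. Genes with several probes were represented in lists by the probe with the highest mean. The scripts were tested on simulated data.

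Members and gene lists were chosen with earlier results of these data known. Genes named are all probes of the 4 genes, the 3 named genes closest in pattern to each gene detected on all arrays, the called genes of the pathway lists and up to 3 genes of each marker list. Others (paralogs, LDB1, ACHE, PCSK1N, FURIN, MUC1, MUC4, the Ras-MAPK genes, further marker genes and genes not well above background) were named after their values were seen. Same-numbered alone and mixed arrays deviated together from their group means (correlations over probes 0.349, 0.162 and 0.296 for numbers 1 to 3). Alone replicate 2 correlated more with mixed replicate 3 (0.238) than with mixed replicate 2, so these values do not settle whether the numbers pair the arrays. The main fit was therefore read as unpaired, with the replicate number as a block only among the alternatives. Precision is limited by 3 arrays a group.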

Additional observations from a re-analysis of the deposited data

How the results depend on the processing

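Both LMO2 probes were higher in mixed under all 14 alternatives (1.43 to 2.46 at probe 1, 1.07 to 2.59 at probe 2), as were both BCHE probes. With spike-in scaling, which moved the median of all probes to -0.17, LMO2 was 1.74 and 1.93 and not called, PCSK1 turned to -0.088, and 949 probes were called, 30.2% of them higher in mixed, against 2978 and 49.0% as reported. Without a filter on dim probes LMO2 was 1.90 and 2.09 and not called (adjusted p = 0.124 and 0.0979, limma), and 12 probes were called in all. By the methods' t-test LMO2 was again 1.90 and 2.09 and not called (adjusted p = 0.136 and 0.107), with 828 probes called. BCHE probe 2 was called after quantile normalization (0.33) and normexp correction (0.31). Leaving out each array gave 7 (without alone replicate 3) to 7335 calls (without alone replicate 1), 24 without alone replicate 2, and 9 and 12 when mixed replicate 2 or 3 was left out. It gave LMO2 1.62 to 2.46 at probe 1 and 1.81 to 2.59 at probe 2, BCHE 0.34 to 0.52 and 0.29 to 0.40, and PCSK1 -0.052 (without alone replicate 2) to 0.26. The cause of these changes was not tested. With the replicate number as a block 2825 probes were called, and no call of the 4 genes changed. Of 300 list counts recomputed, 219 stayed within 1.5 times and 81 moved. The planned fit with slide as a block was not run, because no slide carried both groups. MUC13 was not well above background on any array, so its level is limited by signal.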
